A study of Mus musculus with 8 samples.

Results

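The genes of activator protein 1 (AP-1) examined here were Fos, Fosb, Fosl1, Fosl2, Jun, Junb, Jund, Atf3 and Batf3, which are 9 of 21755 protein-coding genes of GENCODE M21. For each gene, the peaks of 8 ATAC-seq libraries were taken that overlapped the gene body or lay within 20 kb of one of its transcription start sites (TSSs). Merged over the libraries, these peaks formed 115 of 183173 regions. ATAC-seq marks open chromatin by the places where the Tn5 transposase can insert adapters. The genes were taken by name and the peaks by position, with no threshold on accessibility.

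The libraries came from cultured cell lines derived from PyMT mouse mammary tumors, strain FBV/N as labelled, in which the polyomavirus middle T oncogene drives the tumor. WT cells carried Lats1, a kinase gene of the Hippo pathway, and Lats1-CKO cells lacked it in their epithelial compartment. The driver of the deletion is not given in the sources used here. Cells were sorted by FACS into luminal (EpCAM-high, CD49f-high) and basal (EpCAM-low, CD49f-high; called basal-like below) populations and briefly expanded in culture without further treatment. The 4 groups held 2 libraries each. The luminal libraries were BM1 and BM5 of WT cells and BM3 and BM7 of Lats1-CKO cells, and the basal-like libraries were BM2 and BM6 of WT cells and BM4 and BM8 of Lats1-CKO cells. Values of a group are given below in this order, the lower-numbered library first. The age of the mice behind these lines is not given in the sources used here. The labels do not say whether the 2 libraries of a group came from separate cultures or animals, so the p-values below measure only the spread between these libraries.

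AP-1 is a dimer of basic leucine zipper (bZIP) proteins, typically a FOS and a JUN protein, and ATF3 and BATF3 can also pair with JUN proteins. Fos, Junb and Atf3 are classical immediate early genes, which are transcribed within minutes of a growth factor or stress signal, without new protein synthesis. At the Fos promoter, serum response factor (SRF) binds a CArG box and recruits ETS-type partners that are targets of MAP kinases. AP-1 often binds enhancers together with TEAD factors, the DNA-binding partners of YAP and TAZ, which LATS kinases restrain.

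Sequences are shown for some of the places described below. At Fos these are the upstream sequence and a constitutively open distal region. Near Junb they are the regions that separated the basal-like from the luminal libraries. At Atf3 an intronic region is shown that lacked a peak in Lats1-CKO basal-like cells. For the Junb and Atf3 regions, the share of all regions that did the same is given below. All sequences are from GRCm38.p6 (mm10), 5′ to 3′, in the direction of transcription. Fos is on the plus strand, and Junb and Atf3 are on the minus strand. Capitals mark a CArG box in the Fos sequences and a TEAD match (GGAATG on the other strand) in the Atf3 sequence. The first lies at chr12:85473550-85473849, just upstream of the Fos start. The second, at chr12:85485930-85486229, is the center of an intergenic region 11.2 kb downstream of a Fos TSS. The third, chr8:84978719-84978953, precedes the 5′-most Junb start and is the part of the promoter region outside the gene. The fourth, chr8:84990873-84991105, lies 12.3 kb upstream of Junb in an intron of its neighbor Hook2. The last, chr1:191204891-191205190, lies in an intron of Atf3.
Fos upstream: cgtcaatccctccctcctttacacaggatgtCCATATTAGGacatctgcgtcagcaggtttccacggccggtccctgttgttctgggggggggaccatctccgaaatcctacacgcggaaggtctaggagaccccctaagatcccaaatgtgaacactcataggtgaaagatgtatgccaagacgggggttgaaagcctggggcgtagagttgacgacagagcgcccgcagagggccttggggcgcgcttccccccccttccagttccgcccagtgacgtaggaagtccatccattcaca
Fos downstream: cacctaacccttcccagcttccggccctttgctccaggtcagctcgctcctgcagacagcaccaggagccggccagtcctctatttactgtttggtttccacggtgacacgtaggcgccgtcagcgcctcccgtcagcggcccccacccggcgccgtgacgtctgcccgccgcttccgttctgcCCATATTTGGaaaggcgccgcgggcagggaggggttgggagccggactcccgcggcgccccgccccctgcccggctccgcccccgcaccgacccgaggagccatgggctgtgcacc
Junb promoter: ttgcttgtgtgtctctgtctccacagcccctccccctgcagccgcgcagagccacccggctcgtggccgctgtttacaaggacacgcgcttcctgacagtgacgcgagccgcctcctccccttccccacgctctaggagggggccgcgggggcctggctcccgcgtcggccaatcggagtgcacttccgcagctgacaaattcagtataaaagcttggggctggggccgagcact
Junb upstream: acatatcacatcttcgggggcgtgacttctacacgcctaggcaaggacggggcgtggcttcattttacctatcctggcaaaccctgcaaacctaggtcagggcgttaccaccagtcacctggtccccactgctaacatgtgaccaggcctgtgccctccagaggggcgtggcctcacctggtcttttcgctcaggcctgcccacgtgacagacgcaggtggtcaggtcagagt
Atf3 intron: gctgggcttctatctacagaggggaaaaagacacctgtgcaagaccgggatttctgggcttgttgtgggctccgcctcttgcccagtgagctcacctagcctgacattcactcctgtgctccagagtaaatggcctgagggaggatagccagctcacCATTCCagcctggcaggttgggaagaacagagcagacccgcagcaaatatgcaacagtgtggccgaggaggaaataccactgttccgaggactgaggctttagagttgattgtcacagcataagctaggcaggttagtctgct

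The libraries differed in how many peaks had been called, from 51497 in BM6 to 99022 in BM8, with only 14753 in the Lats1-CKO luminal library BM3. The deposited score of a peak is not normalized between libraries, so each is given as its percentile among the peaks of its own library, and a gene without a peak in a library is given as 0. The paper's methods state that, for its quality, 1 of the Lats1-CKO luminal replicates was not used in the merged data, and do not name it, so results that rest on BM3 are given with and without it. Without BM3, every Lats1-CKO library (86279 to 99022 peaks) had more peaks than every WT library (51497 to 72685). Genotype and the number of peaks called cannot be told apart in those comparisons. As a check of the labels, all 5 luminal markers (Krt8, Krt18, Epcam, Cldn3 and Elf3) had a promoter peak (within 1 kb of any TSS) in every WT library and in BM7, 4 had one in BM3, and only 2 did in BM4 and in BM8. Of the 5 basal markers (Krt5, Krt14, Trp63, Acta2 and Itga6), 2 or 3 had such a peak in every library and Trp63 in none, so the basal identity rests on the sort and the label and not on these markers. Of 5 markers each, fibroblast genes had a peak in 0 to 4, immune genes in 0 to 4 and endothelial genes in 0 to 2 per library, and the highest fibroblast and immune counts were both in BM8. Lats1 itself had a promoter peak in every library except BM3, with percentiles of 53.6 to 81.5. As the deleted part of the gene is not given, this peak does not check the deletion.

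All 9 AP-1 genes had at least 1 peak in their window in every library. Summed over the 8 libraries, the Junb window held 93 peaks, the Atf3 window 89, Fosb 73, Fosl1 66, Jund 55 and Fos 50, and these sums were larger than those of 97.4%, 97.0%, 95.0%, 93.3%, 89.1% and 86.0% of protein-coding genes. Fosl2 (31 peaks), Jun (28) and Batf3 (19) were nearer to a typical gene, with 63.8%, 58.5% and 41.1% of genes having fewer. By library, the 9 windows together held 70 peaks in BM1, 53 in BM5, 68 in BM2, 56 in BM6, 28 in BM3, 79 in BM7, 73 in BM4 and 77 in BM8. Libraries with more peaks in all had more in these windows, except that BM5 and BM6, and BM7 and BM8, changed places. Per 1000 peaks of the library, they ranged from 0.778 in BM8 to 1.09 in BM6, with 1.90 in BM3. 

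**Figure D1:**
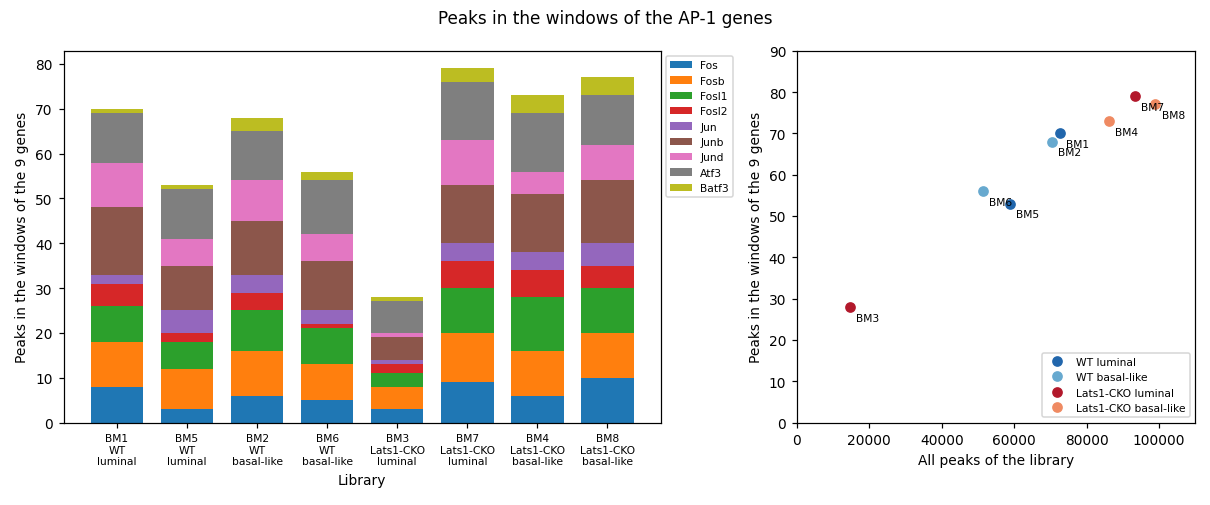
Number of peaks in the windows of the 9 AP-1 genes in each library, stacked by gene (left), and the same totals against all peaks of the library (right; x axis, number of peaks; y axis, number of peaks in the windows). Each bar or point is 1 library; the window totals run from 28 peaks in BM3, the library with 14753 peaks, to 79 in BM7.

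The genes lie in neighborhoods of other genes. Only 48 of the 115 regions were nearer to a TSS of the AP-1 gene itself than to that of any other gene. In the Fos window all 12 regions were nearest to Fos, whereas in the Jund window 2 of 10 and in the Jun window 1 of 6 were nearest to the member. At Jun, the others were nearest to Junos, Gm12703 or Gm12704. At Junb they were nearest to Hook2, Rnaseh2a, Prdx2 or Gm49661, so peaks there cannot be assigned to Junb alone. The regions were shared by more libraries than regions in general. The windows lie around TSSs, whereas all regions were taken from anywhere in the genome. Windows of other genes were not compared, so the part of nearness to a TSS was not tested. Of the 115, 19 (16.5%) had a peak in all 8 libraries and 62 (53.9%) in 4 or more, against 5.95% and 32.0% of all regions. A peak in 1 library only was seen for 31 regions (27.0%), against 44.5% of all regions.

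Promoter accessibility was described for each gene by its highest peak within 1 kb of any TSS. Fosl2, Fosb, Fosl1, Jun, Jund and Atf3 had such a peak in all 8 libraries, Fos and Junb in 7, and Batf3 in 6. For comparison, 34.6% of protein-coding genes had one in BM3 and 50.9% to 59.3% in the other libraries. Fosl2 and Jun had the highest median percentiles over the libraries (95.6 and 91.9), followed by Atf3 (86.5), Jund (80.9), Fosb (78.7), Junb (74.9), Fosl1 (71.1), Fos (69.6) and Batf3 (27.5). Each gene in this order overlapped the next in its range over the libraries, so that neighbors did not differ beyond their spread. Batf3, the last, had its highest value, 62.2, below the median of every other member. Among all protein-coding genes with a promoter peak, the median percentile was 65.7 in BM3 and 77.2 to 84.4 in the other libraries. The medians of Junb, Fosl1, Fos and Batf3 lay below 77.2, and those of Jund and Fosb between 77.2 and 84.4.

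**Figure D2:**
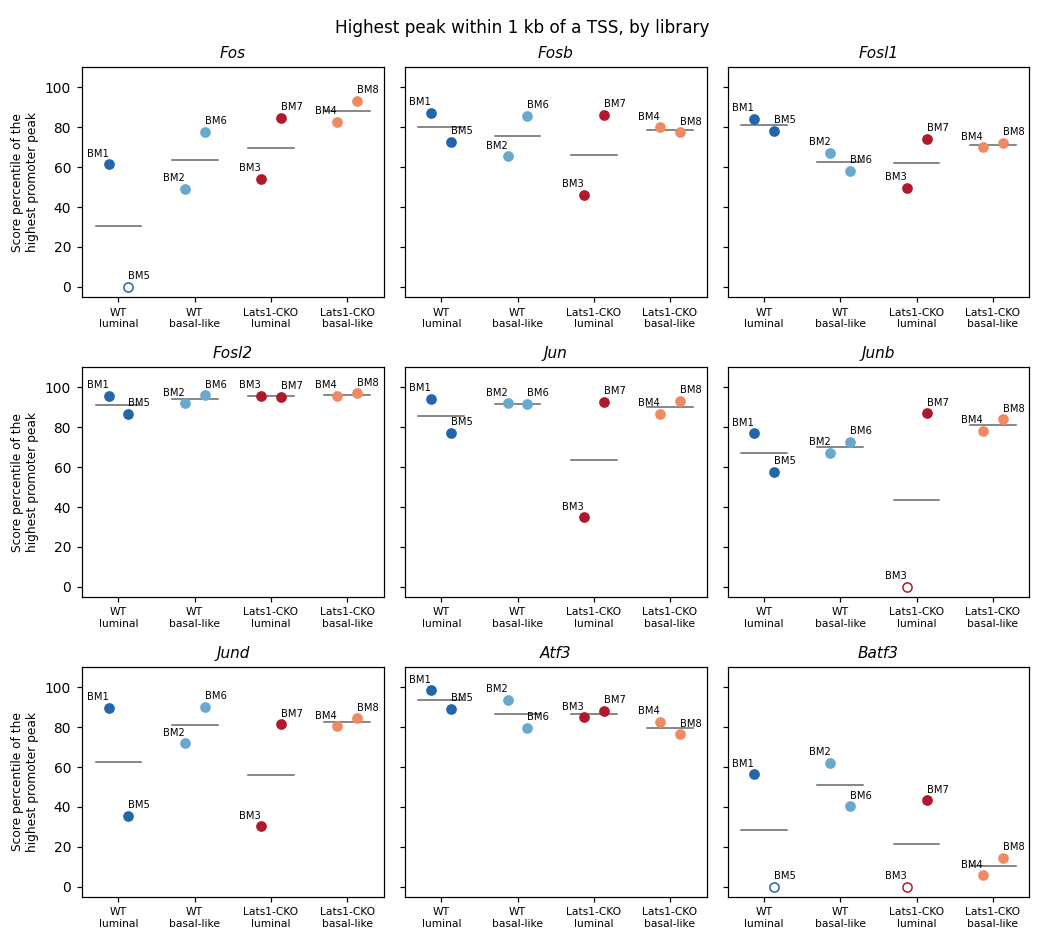
Score percentile of the highest peak within 1 kb of a TSS (y axis, percentile within the library) for each AP-1 gene, with 1 point per library in its group (x axis) and a line at the mean of the 2 libraries; open circles at 0 mark libraries without such a peak. Fosl2 stayed between 86.7 and 97.0, whereas BM3 was the lowest library for Fosb, Fosl1, Jun, Junb and Jund.

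Among the FOS proteins, which need a JUN partner to bind DNA as AP-1, Fos itself varied most. Of the WT luminal libraries, BM1 had a promoter percentile of 61.4 and BM5 had no promoter peak. The percentiles were 49.3 and 77.7 in WT basal-like, 54.1 (BM3) and 84.9 in Lats1-CKO luminal, and 82.8 and 93.2 in Lats1-CKO basal-like libraries. The 3 highest values were thus those of Lats1-CKO libraries, but BM3 lay within the range of WT. The mean was 78.8 ± 17.0 (SD, n = 4) in Lats1-CKO and 47.1 ± 33.5 (SD, n = 4) in WT libraries, a difference of 31.7 percentile points that did not pass the two-sided exact permutation test (p = 0.143; adjusted p = 1.000 over all genes). Without BM3, the 3 Lats1-CKO libraries (87.0 ± 5.5, SD, n = 3) lay above all 4 WT libraries, a difference of 39.9 (exact permutation p = 0.057, adjusted p = 0.617). Without BM5, the WT library with no Fos promoter peak, the genotype difference was 16 (exact permutation p = 0.257), and with peaks up to 5 kb from a TSS it was 8.14 (exact permutation p = 0.429). Between basal-like and luminal libraries the Fos difference was 25.7 (exact permutation p = 0.314), again with overlap, and 8.96 without BM5 (exact permutation p = 0.543).

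Fosb encodes a FOS protein closely related to FOS. Its percentiles were 87.4 and 72.8 in WT luminal, 65.5 and 85.9 in WT basal-like, 46.0 (BM3) and 86.2 in Lats1-CKO luminal, and 79.9 and 77.5 in Lats1-CKO basal-like libraries. All groups overlapped, and the Lats1-CKO minus WT difference was -5.49 (exact permutation p = 0.686), or 3.31 without BM3. Fosl1 encodes FRA1, which lacks the strong activation domain of FOS. Its percentiles were 84.1 and 78.3 in WT luminal, 67.3 and 58.2 in WT basal-like, 49.8 (BM3) and 74.3 in Lats1-CKO luminal, and 69.9 and 72.3 in Lats1-CKO basal-like libraries. The WT luminal libraries were the highest, and the genotype difference was -5.37 (exact permutation p = 0.514), or 0.212 without BM3. Basal-like minus luminal was -4.68 with all libraries, with overlap (exact permutation p = 0.600). Without BM3, the 3 luminal libraries (78.9 ± 4.90, SD, n = 3) lay above the 4 basal-like libraries (66.9 ± 6.15, SD, n = 4), a difference of -11.9 for basal-like minus luminal (exact permutation p = 0.057, adjusted p = 1.000). Fosl2, which encodes FRA2, was the most uniform member, with 95.6 and 86.7 in WT luminal, 91.9 and 96.0 in WT basal-like, 95.8 (BM3) and 95.4 in Lats1-CKO luminal, and 95.6 and 97.0 in Lats1-CKO basal-like libraries. Its promoter region spanned 1042 bp when merged over the libraries. The genotype difference was 3.41 (exact permutation p = 0.229), and BM5 was the lowest library.

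The JUN proteins can form AP-1 with one another or with FOS proteins. At Jun, the percentiles were 94.4 and 77.1 in WT luminal, 91.9 and 91.8 in WT basal-like, 34.9 (BM3) and 92.6 in Lats1-CKO luminal, and 86.8 and 93.4 in Lats1-CKO basal-like libraries. Apart from BM3 and BM5, all values lay between 86.8 and 94.4. The genotype difference was -11.9 with all libraries (exact permutation p = 0.600) and 2.12 without BM3. At Junb, an immediate early gene that can restrain the activity of JUN, the percentiles were 77.0 and 57.5 in WT luminal, 67.3 and 72.8 in WT basal-like, absent (BM3) and 86.9 in Lats1-CKO luminal, and 78.1 and 84.0 in Lats1-CKO basal-like libraries. The difference was -6.41 with all libraries (exact permutation p = 1.000). Without BM3 it was 14.3, and the 3 Lats1-CKO libraries (83.0 ± 4.48, SD, n = 3) lay above all 4 WT libraries (68.6 ± 8.40, SD, n = 4; exact permutation p = 0.057, adjusted p = 0.617). In BM1, BM2, BM7 and BM8 the highest Junb peak lay 0.161 kb upstream of an internal TSS. At the region over the 5′-most TSS alone, the genotypes overlapped also without BM3. There BM7 (50) and BM8 (61.6) were not above the WT values (52.0 to 72.8). Jund, which is expressed more evenly across conditions than the immediate early members, had 89.6 and 35.5 in WT luminal, 71.9 and 90.3 in WT basal-like, 30.2 (BM3) and 81.4 in Lats1-CKO luminal, and 80.5 and 84.4 in Lats1-CKO basal-like libraries. The genotype difference was -2.70 (exact permutation p = 0.771), or 10.3 without BM3 (exact permutation p = 0.743), and BM3 and BM5 were well below the other 6 libraries.

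Atf3 encodes a stress-induced ATF/CREB family protein. Its promoter percentiles were 98.5 and 89.2 in WT luminal, 93.7 and 79.6 in WT basal-like, 84.9 (BM3) and 88.1 in Lats1-CKO luminal, and 82.6 and 76.4 in Lats1-CKO basal-like libraries. The lowest group mean was that of Lats1-CKO basal-like cells (79.5) and the highest that of WT luminal cells (93.9), with differences of -7.24 for Lats1-CKO minus WT (exact permutation p = 0.171) and -7.10 for basal-like minus luminal (exact permutation p = 0.200). Batf3, known for its role in dendritic cells, had 56.4 in the WT luminal library BM1 and no promoter peak in BM5, 62.2 and 40.3 in WT basal-like, none in BM3 and 43.3 in BM7 of Lats1-CKO luminal, and 5.71 and 14.6 in Lats1-CKO basal-like libraries. The genotype difference of -23.8 did not pass the test (exact permutation p = 0.286).

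With all 8 libraries, 0 of the 9 members had promoter percentiles that did not overlap between genotypes, where 0.398% of the 14571 protein-coding genes with a promoter peak were higher and 0.721% lower in Lats1-CKO without overlap. The same was true of 0 of 9 between the populations, against 0.727% of genes higher and 0.206% lower in basal-like libraries. Over all these genes, 163 in the genotype and 136 in the population comparison had an exact permutation p below 0.05, and 0 passed Benjamini-Hochberg adjustment. Without BM3, 2 of 9 members (Fos and Junb) were higher in Lats1-CKO without overlap, when 10.3% of 14561 genes were, and 0 were lower, when 0.790% were. In the population comparison without BM3, 0 members were higher in basal-like libraries (0.728% of genes) and 1, Fosl1, was lower (2.88% of genes). The median difference over all genes was -1.28 percentile points for Lats1-CKO minus WT with all libraries and 4.84 without BM3, and it was 5.59 and -0.444 for basal-like minus luminal. Without BM3, Fos (39.9) and Junb (14.3) had the largest upward differences of the members. Jund (10.3), whose genotypes overlapped, came next. In that comparison every Lats1-CKO library also had more peaks than every WT library.

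**Figure D3:**
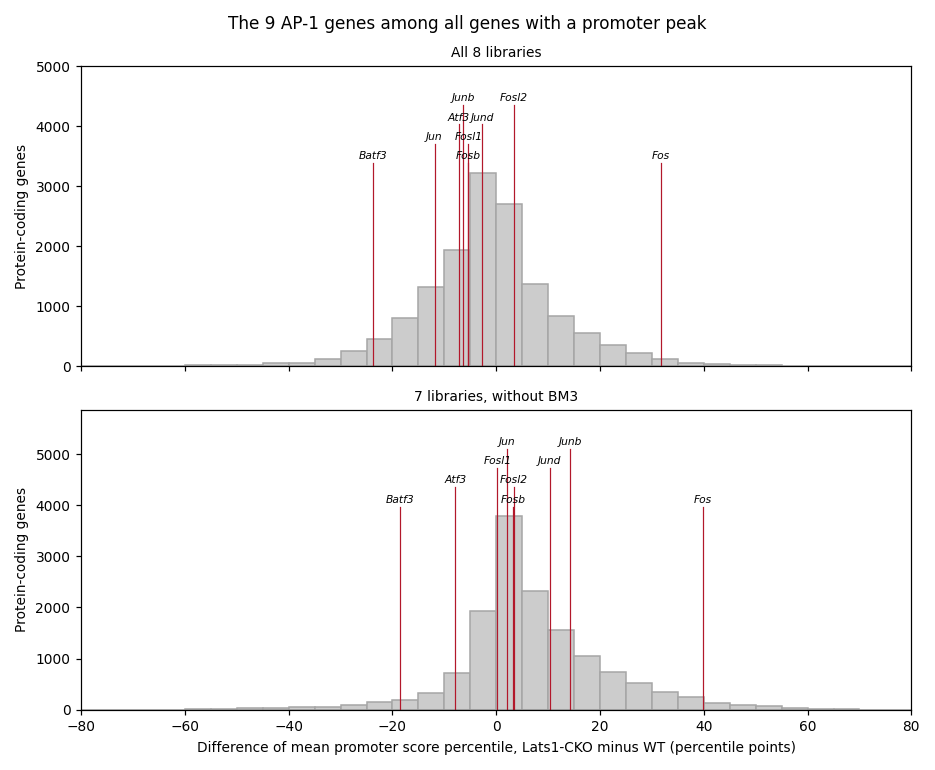
Histograms of the difference of mean promoter score percentile, Lats1-CKO minus WT (x axis, percentile points), over all protein-coding genes with a promoter peak (y axis, number of genes), with red lines at the 9 AP-1 genes, for all 8 libraries (top) and without BM3 (bottom). Fos is the member farthest to the right in both panels, at 31.7 and 39.9, and Batf3 the farthest to the left.

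Within the Fos window, the promoter was neither the strongest nor the most stable region. A region 18.6 kb upstream (chr12:85454915-85455702) had a peak in all 8 libraries, with percentiles of 96.8 and 94.5 in WT luminal, 92.4 and 93.4 in WT basal-like, 91.6 and 98.3 in Lats1-CKO luminal, and 93.7 and 98.3 in Lats1-CKO basal-like libraries. The region 11.2 kb downstream of a TSS (chr12:85485848-85486311) also had one in every library, with 92.7, 97.0, 82.8, 93.3, 80.8, 95.8, 87.0 and 97.9 in the same order. Both were intergenic, and both remained among the high peaks in BM3. Nearer to the gene, a region 1.67 kb upstream had 81.2 and 63.9 in WT luminal, 66.4 and 53.4 in WT basal-like, none in BM3 and 88.9 in BM7, and 85.0 and 93.8 in Lats1-CKO basal-like libraries. Apart from BM3, the 3 Lats1-CKO values were above the 4 WT values. A further 3 of the 12 regions had a peak only in BM7 and BM8, the libraries with the most peaks, 11.4 kb upstream, 1.28 kb upstream and 12.7 kb downstream. Regions seen only in those 2 libraries made up 25% of the Fos regions and 4.32% of all regions. Over the windows of all 9 genes they were 6 of 115 regions (5.22%), close to the share of all regions, with 0 at Fosb, Fosl2, Jun, Jund, Atf3 and Batf3.

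At Junb, 14 of 19 regions had a peak in 4 or more libraries and 4 in all 8. The region over the 5′-most TSS (chr8:84978639-84978953) had 52.0 and 57.5 in WT luminal, 66.8 and 72.8 in WT basal-like, none in BM3 and 50 in BM7, and 78.1 and 61.6 in Lats1-CKO basal-like libraries. Every basal-like value was above every luminal value, also without BM3. The intronic Hook2 region 12.3 kb upstream (chr8:84990873-84991105) had the opposite order, with 64.9 and 52.2 in WT luminal, 29.3 and none (BM6) in WT basal-like, 57.3 and 65.4 in Lats1-CKO luminal, and no peak in either Lats1-CKO basal-like library. Between them, a region 11.8 kb upstream that overlaps a Hook2 exon had a peak in all 8 libraries at 74.2 to 90.1. The other regions with a peak in every library lay 10.4 kb downstream, in Rnaseh2a (60.1 to 89.7), 1.13 kb upstream (30.2 to 79.7) and 2.50 kb upstream (15.8 to 94.9).

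Atf3 had the largest window, because it has TSSs far apart, and 12 of its 16 regions had a peak in 4 or more libraries. A region 13 kb into the gene from its 5′ end (chr1:191204890-191205190, intronic) had percentiles of 95.9 and 91.3 in WT luminal, 96.3 and 69.1 in WT basal-like, and 72.7 and 97.1 in Lats1-CKO luminal libraries. No peak was called there in BM4 or BM8. This region was singled out after its values had been seen. BM4 and BM8 were also the libraries with promoter peaks at only 2 of 5 luminal markers, against 4 or 5 in the other 6 libraries. Fibroblast markers had one in 3 and 4 of 5 cases in BM4 and BM8, against 0 to 3 in the others, and immune markers in 2 and 4 of 5, against 0 to 3, so that BM4 lay within the range of the other libraries for both. The part of cell makeup in this result was not tested. In such bulk libraries, fewer cells with an open region and a less open region in each cell cannot be told apart. It was 1 of 20 regions of the AP-1 windows with a peak in the 6 other libraries that lacked one in both Lats1-CKO basal-like libraries, as did 1.44% of the 11587 such regions genome-wide. When only the 10000 peaks with the highest scores were used in every library, it had a peak in BM1, BM5, BM2, BM3 and BM7, and not in BM6. A region close to an internal TSS (0.599 kb downstream, chr1:191182386-191182633) went the other way, with no peak in BM1, BM5 or BM3, 27.1 and 15 in WT basal-like, 63.4 in BM7, and 82.6 and 69.5 in Lats1-CKO basal-like libraries. The main Atf3 promoter region, 0.092 kb upstream of an internal TSS, had a peak in every library (76.4 to 98.5), as did regions 1.65 kb downstream of the 5′-most TSS (1.44 to 90.2), 4.18 kb upstream (56.4 to 89.2) and 6.91 kb upstream (58.7 to 93.2).

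**Figure D4:**
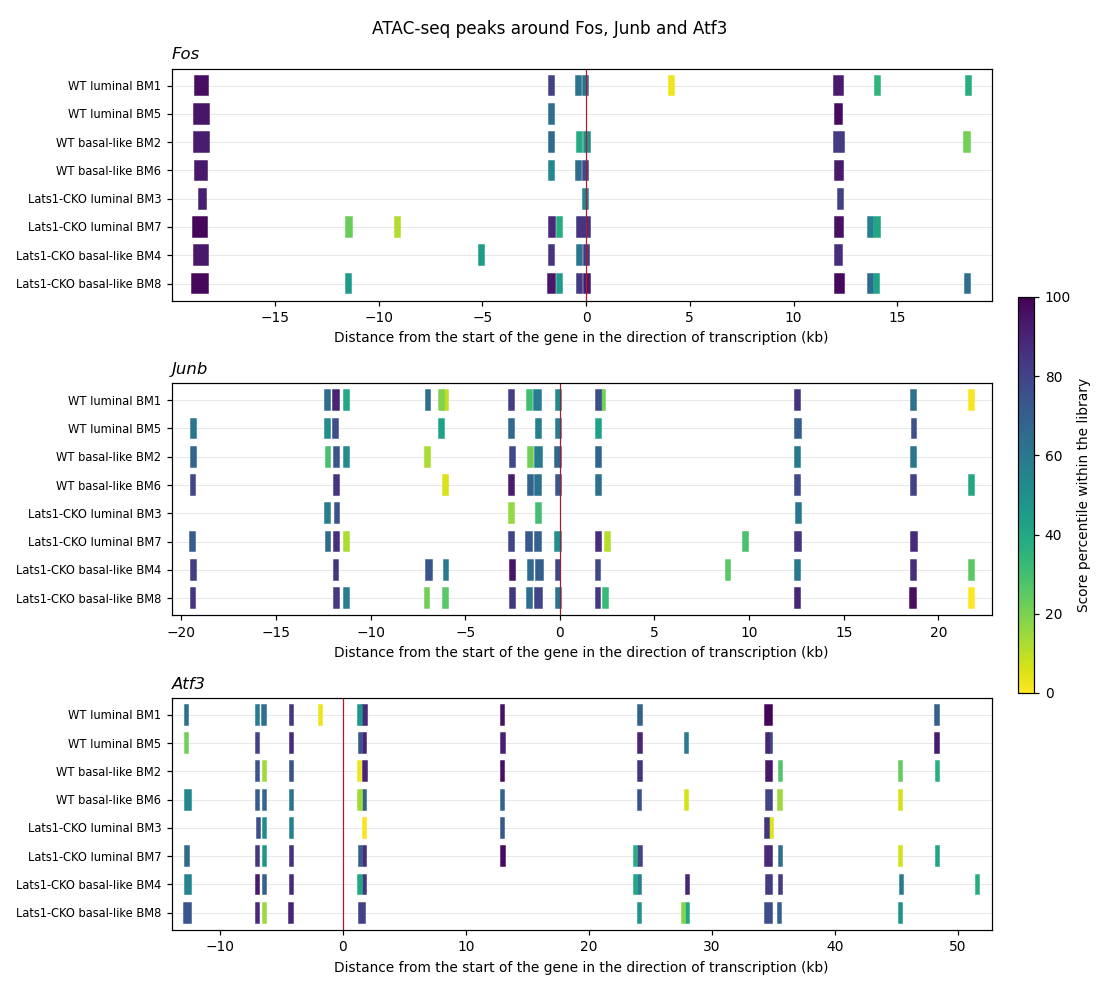
Peaks around Fos, Junb and Atf3 in the 8 libraries (rows), by distance from the start of the gene in the direction of transcription (x axis, kb; the red line is the start), colored by score percentile within the library; peaks narrower than 0.25 kb are drawn at that width. The Fos regions 18.6 kb upstream and 12.2 kb downstream of the start are dark in every row, and the Atf3 peak at 13 kb is missing from the rows of BM4 and BM8.

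In the windows of Jun and Jund, the promoter was the only region with a peak in every library (34.9 to 94.4 and 30.2 to 90.3). At Fosb, regions 13.6 kb downstream (2.21 to 88.1), 0.363 kb upstream (35.5 to 87.4), 6.93 kb upstream (20.4 to 82.2) and 10.1 kb upstream (7.46 to 94.8) had a peak in every library, with the lowest value in BM3 for the first and the last. At Fosl1, a region 17.6 kb upstream (48.9 to 91.9) and the promoter (48.1 to 84.1) did. At Fosl2, 8 of 12 regions were seen in 1 library only and the promoter was the sole region in all 8. At Batf3, no region was present in all 8 libraries, and an intronic region 2.64 kb downstream of a TSS was called in the Lats1-CKO basal-like libraries alone, at 90.2 in BM4 and 42.0 in BM8. Both had more peaks in all than any WT library. The share of all regions called only in BM4 and BM8 was not computed, so this region is not set apart from regions in general.

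Of the 62 window regions with a peak in 4 or more libraries, 0 were higher and 0 lower in Lats1-CKO without overlap, against 0.196% and 1.06% of all 58610 such regions. For the populations, 1 of the 62 was higher in basal-like libraries, a share close to the 1.65% of all regions. Another 1 of the 62 was lower, against 0.157% of all regions. These were the 2 Junb regions described above. The lower one lies in an intron of Hook2, 347 bp from a Hook2 TSS. It was not called when a peak had to cover 50% of the region. Without BM3, 9 of 70 regions were higher in Lats1-CKO, against 13.6% of 74643 regions, and 0 lower, against 0.868%. The 9 were the Fos regions 1.67 and 0.130 kb upstream, Fosl1 2.41 kb upstream, Junb 16.5 kb downstream, 0.161 and 1.13 kb upstream, Jund 3.97 kb downstream, and Atf3 0.599 kb downstream and 6.91 kb upstream. Their share was close to that of all regions. Also without BM3, 1 region was higher in basal-like libraries (1.30% of all regions) and 4 were lower (2.70%).

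**Figure D5:**
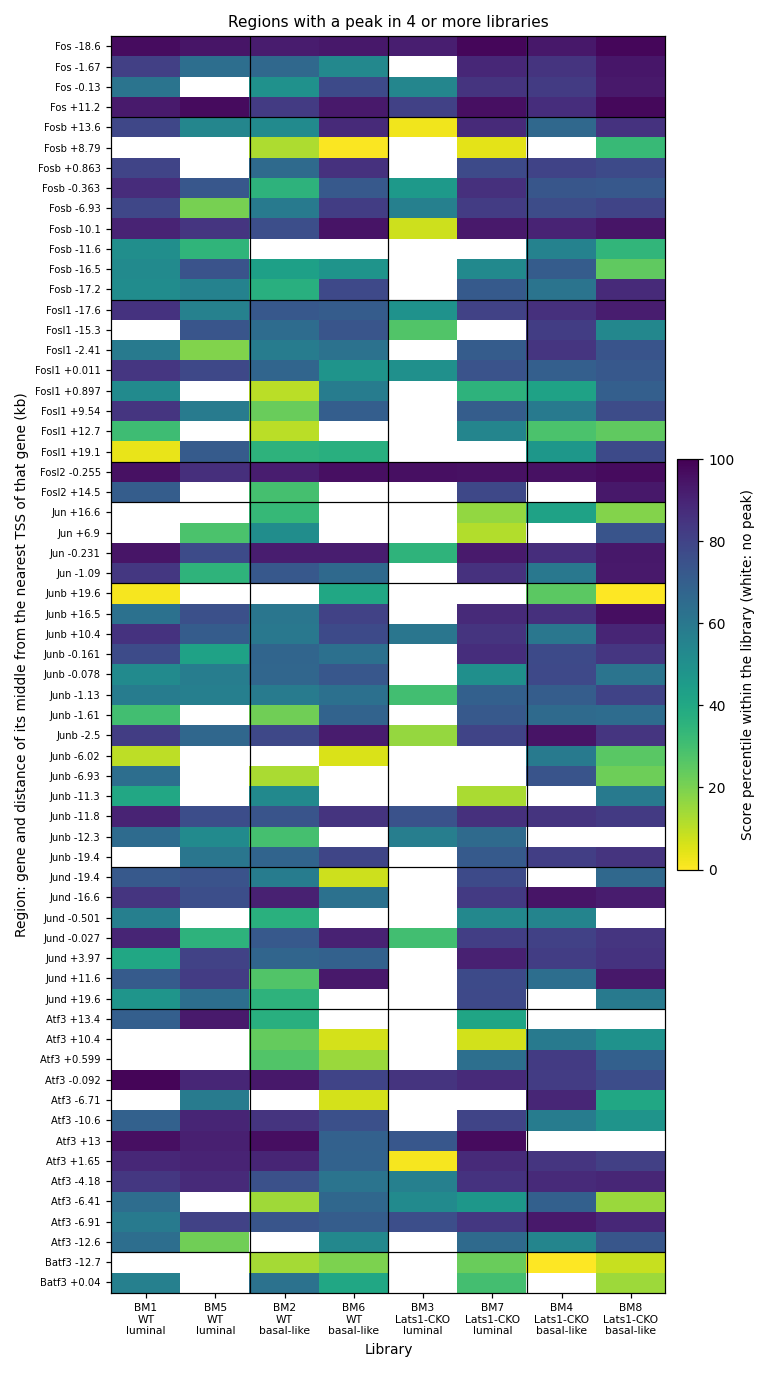
Score percentile within the library (color; white, no peak) of the 62 window regions with a peak in 4 or more libraries (rows, by gene and distance from the nearest TSS of that gene in kb, negative upstream) in each library (columns). BM3 has the most white cells, and Fos -18.6 and +11.2 and Fosl2 -0.255 are filled in every column.

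Both strands of the middle 300 bp of every region were searched for motifs. The AP-1 site TGANTCA occurred in 31 of the 115 regions (27.0%; exact 95% binomial interval 19.1 to 36%) and in 29.5% of all regions. It was found in 8 of 16 regions at Fosl1 and 8 of 16 at Atf3, and in 0 of 12 at Fos. The CRE TGACGTCA, which is bound by ATF and CREB proteins, occurred in 1 region (0.870%, against 0.642%), and the TEAD motif GGAATG in 17 (14.8%; interval 8.85 to 22.6%; 21% of all regions). A CArG box occurred in 3 (2.61%, against 1.46%), namely the Fos region 11.2 kb downstream, the Fosb region 0.363 kb upstream and the Junb region 0.161 kb upstream. The CArG box of the Fos upstream sequence printed above, CCATATTAGG at its bases 32 to 41, lay in the promoter region but outside the central 300 bp. A CRE string holds no AP-1 string, so no match was counted as both. RefSeq promoter sequences were given for 8 of the 9 members, and all 8 were identical to the genome sequence used.

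Genes whose products pair with AP-1 proteins or act upstream of them, and other immediate early genes, were counted in the same way. Of 13 other bZIP genes with a promoter peak (16 listed), 14 upstream kinases and nuclear factors (14 listed) and 16 other immediate early genes (16 listed), 0 separated the genotypes and 0 the populations with all 8 libraries. The median Lats1-CKO minus WT differences were -2.58, 1.2 and 0.39, against -1.28 for all genes. Without BM3, 1 bZIP gene, 2 of the kinases and factors and 5 of the immediate early genes were higher in Lats1-CKO without overlap, where 10.3% of all genes were, and 0 were lower, with medians of 2.52, 5.63 and 9.24 against 4.84 for all genes. The bZIP gene was Jdp2, a repressive partner of JUN, whose difference was 17.6 (exact permutation p = 0.057). The kinases and factors were Elk3, an ETS factor that binds with SRF (37.5, exact permutation p = 0.086), and Mapk14, which encodes p38α (15.4, exact permutation p = 0.057). Among the immediate early genes these were Ier2 (24.8, exact permutation p = 0.029), Egr2 (22.6, p = 0.057), Ccn2, a YAP target (21.2, p = 0.086), Ier3 (18.3, p = 0.057) and Myc (16.5, p = 0.057). The adjusted p was 0.617 for each of these 8 genes.

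Across the 8 libraries, Jun and Junb were the members most alike in promoter percentile (Pearson r = 0.973), followed by Fos with Fosl2 (0.92) and Fosb with Junb (0.902). The lowest value was that of Fos with Atf3 (-0.472). The gene most like each member over all protein-coding genes was Rela for Fos (r = 0.980), Zdhhc20 for Fosb (0.990), Pgpep1 for Fosl1 (0.982), Slc12a9 for Fosl2 (0.983), Rttn for Jun (0.997), Tmem206 for Junb (0.999), Sik1 for Jund (0.993), Cds1 for Atf3 (0.928) and Bicdl2 for Batf3 (0.965). These are descriptions over n = 8 libraries, and all genes of a library are subject to the number of peaks called in it. For Jun and Junb they rest largely on BM3, in which Rttn and Tmem206 had no promoter peak. Other pairs also shared their low libraries. In BM5, Fos had no promoter peak, and Fosl2 (86.7) and Rela (43.5) were at their lowest. Jund (30.2 and 35.5) and Sik1 (3.86 and 0) were lowest in BM3 and BM5. Each most alike gene was picked for the highest r of all protein-coding genes, so a high r follows in part from that choice.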

How the data were processed

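The authors sorted the cells, prepared ATAC-seq libraries with Nextera Tn5 and, per the labels and the paper's methods, trimmed reads with cutadapt, aligned them uniquely to mm10 with Bowtie 1.0.0, removed mitochondrial and duplicate reads (Picard 2.3.0 per the labels) and long fragments, and called peaks in each library with MACS2 (2.1.1.20160309 per the labels; the paper's methods name an older version). Peaks on the ENCODE blacklist were removed. MACS2 options are not given in the sources used here. The authors deposited 1 peak list per library with a whole-number score, which was at least 13 everywhere and was taken to be the MACS2 score. It was not normalized between libraries and rises with depth. The lists hold no read counts, so the depth of each library is unknown here, no counting interval was given for a peak, and the DiffBind comparison of the study could not be made; the number of peaks per library stands as the sole measure of yield.

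Scores were turned into percentiles within each library (ties averaged), with 0 where no peak was called. Overlapping or touching peaks of the 8 libraries were merged into regions, and a library had a region where it overlapped a peak by 1 bp or more. GENCODE M21 gave the TSSs and GRCm38.p6 the sequence. Promoter percentiles of all protein-coding genes with a promoter peak were compared between 4 and 4 libraries by a two-sided exact permutation test of the difference of means over the 70 splits (smallest possible p = 0.029), ignoring the other factor, with Benjamini-Hochberg adjustment over all genes. With 2 libraries a group, genotype effects within a population were not tested. Regions with a peak in at least 4 libraries (3 without BM3) were counted where the groups did not overlap. Motif shares carry exact Clopper-Pearson intervals. Python 3.11.15 was used with pysam 0.24.0, scipy 1.17.1, pandas 2.3.3 and numpy 2.4.6. The permutation test and the call of no overlap between groups were tested on simulated promoter percentiles, and the merging of regions was not. Alternatives were the 10000 peaks of highest score in each library, peaks above the median score of their library, 5 kb for 1 kb or 20 kb, 50% cover, other motif windows, and each library left out in turn.

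The members and gene lists were chosen with earlier results of these data known. Named are the members, window regions with a peak in all libraries or without overlap between groups and their nearest genes, the gene most alike to each member, and listed genes without overlap; other regions named were chosen after their values were seen. RNA-seq was not analysed here.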

Additional observations from a re-analysis of the deposited data

Results flagged for a closer look

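Values of the 9 genes that stood apart within a group of 4 libraries came from BM3 in 6 of 11 cases, out of 76 groups looked at. The cutoff marks about 5% of groups of independent, normally distributed values. That rate does not hold here, as each library entered both a genotype and a population group. In addition, peak counts with 3 equal values and 1 other are always marked. In the Lats1-CKO libraries, BM3 was far below the other 3 in promoter percentile at Jun (34.9), Junb (0, no peak) and Jund (30.2), and in the number of peaks in the windows of Fosb (5), Junb (5) and all 9 genes (28). Among WT libraries, BM5 was low at the Jun promoter (77.1), and among luminal libraries it was low at the Fosl2 promoter (86.7). BM6 held 8 peaks in the Fosb window, against 10 in each other basal-like library, and 12 in the Atf3 window, against 11 in each other WT library. BM7 held 3 peaks in the Batf3 window, against 1 in each other luminal library. These counts differ by few peaks. BM3 also had the fewest peaks in all, and the part of that in these values was not tested.

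Of 71 values compared between the populations, 4 moved one way with genotype in both luminal libraries and the other way in both basal-like libraries. These differences were not tested. The share of all genes or regions that do the same was not computed, so whether 4 of 71 is more than chance gives is not known here. At the Fosl1 promoter, both Lats1-CKO luminal libraries were below both WT luminal ones and both Lats1-CKO basal-like libraries above both WT basal-like ones, so that the genotype difference in luminal minus that in basal-like cells was -27.5 percentile points. For the Fosl1 region 0.011 kb from a TSS alone it was -32.5, and for the region 19.1 kb downstream, in Ctsw, it was -63.2. The Fosl1 promoter and the region 0.011 kb from a TSS had the same percentile in every library except BM6, so they are not separate cases. The region 11.6 kb upstream of Fosb, in an intron of D830036C21Rik, had a peak in BM1, BM5, BM4 and BM8 (50.5, 34.7, 55.7 and 34.0) and in none of the 4 other libraries, which gave -87.5. All 4 rest in part on BM3.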

How the results depend on the processing

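Of 194 recomputed differences of the 9 promoters, 177 kept their direction. With the 10000 peaks of highest score per library, genes without overlap numbered 93 higher and 59 lower in Lats1-CKO (58 and 105 in the report) and 26 higher and 117 lower in basal-like libraries (106 and 30), the Fosl1 genotype difference turned to 6.5 and the Fosb population difference to -0.336, and the Fos differences were 16.3 for genotype and 0.156 for population (31.7 and 25.7 in the report). Junb and Batf3 then had no promoter value. Only 7 window regions then had a peak in 4 or more libraries, with 0 higher and 0 lower in basal-like libraries; none was at Junb, so its 2 regions could not be called. With peaks above the median score, the Junb genotype difference was 12.1. Within 5 kb, the Batf3 genotype difference was 4.17 and the Fosl1 population difference 0.422, and the Fos differences were 8.14 for genotype and 8.71 for population. With 50% cover, 0 regions were lower in basal-like libraries. The CRE share was 0% in 150 bp and in regions of 4 or more libraries. The cause of the other changes was not tested.

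With each library left out in turn, genes without overlap numbered 74 to 1504 higher and 115 to 335 lower in Lats1-CKO, and 106 to 582 higher and 33 to 420 lower in basal-like libraries. Members numbered 0 to 2 higher and 0 to 1 lower in Lats1-CKO and 0 to 1 lower in basal-like libraries. Genotype differences ranged from 16 (without BM5) to 41.9 (without BM6) at Fos, -10.1 to 3.31 at Fosb, -9.94 to 0.212 at Fosl1, -17.4 to 2.12 at Jun, -14.6 to 14.3 at Junb and -14.8 to 10.3 at Jund, and population differences from 8.96 (without BM5) to 37.3 (without BM7) at Fos, -4.72 to 16.3 at Batf3, -4.92 to 8.87 at Fosb and -0.475 to 2.82 at Fosl2. By genotype, 0 to 1 bZIP, 0 to 2 kinase and factor and 0 to 5 immediate early genes separated, and by population 0 to 1, 0 to 1 and 0 to 4. Without BM3 the genotype counts were 1, 2 and 5, when 10.3% of all genes were higher in Lats1-CKO. The counts over all genes are the ranges given first in this paragraph. Window regions numbered 0 to 9 higher and 0 to 2 lower in Lats1-CKO, and 1 to 6 higher and 1 to 4 lower in basal-like libraries. For Lats1-CKO, the highest counts were 9 of 70 without BM3 (13.6% of all regions) and 2 of 70 without BM6 (5.06%). For the populations they were 6 of 65 without BM7 (5.85%) and 4 of 70 without BM3 (2.7%). No paired analysis was possible because the labels give no replicate numbers and tie no luminal to a basal-like library. An absent peak means that none was called, which depends on depth, unknown here.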
